A study of Yucca flaccida with 12 samples.

Results

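The genes described here were chosen by their measured levels, as those with their highest transcript level in the centre of variegated Yucca leaves. A gene was a member when its lowest level in the 3 variegated-centre libraries was at least 2 times its highest level in the other 9 libraries and at least 2 CPM, with more than 3 counts over the unvariegated libraries. CPM is a gene's count as a share of its library's total, scaled to 1e6. Of 185746 genes, each a cluster of assembled transcripts, 59 met these conditions. A further step dropped 3 whose lowest level over the 6 variegated libraries was at least 2 times their highest unvariegated level, and none of the rest was among the 150 most abundant genes. That left 56 members, numbered below from 1 to 56 by mean CPM in the variegated centre.

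RNA came from the second youngest leaf of in vitro plants of Yucca flaccida 'Golden Sword', an ornamental monocot, sampled without treatment. The groups, with 3 libraries each, were variegated centre (VC), variegated edge (VE), unvariegated centre (UC) and unvariegated edge (UE), and all carried the same genotype label. Which zone was pale is not stated in the labels. Nor is it stated that replicate libraries are separate plants, and p-values therefore measure only the spread between libraries, which may be technical. Library totals lay between 13139086 and 20306020 estimated counts. TMM scaling factors, edgeR's correction for differences in RNA composition, were 0.958 to 1.16 in VC, 0.807 to 0.878 in VE, 1.05 to 1.14 in UC and 0.981 to 1.09 in UE, so VE levels relative to the other groups are lower by library total than after TMM scaling. With TMM-scaled CPM in the same conditions 38 genes were members, 36 of them among the 56.

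A variegated leaf has zones that differ in colour, usually because plastids in some cells do not build chlorophyll and functioning photosynthetic membranes. Pale tissue depends on sugars from green tissue, and cells with impaired plastids are known in other plants to change the expression of nuclear genes through signals from the plastid. The files do not pair identifiers with gene names, so the members' functions are not known here, and neither leaf tissue nor cell types could be checked by marker genes. In whole tissue pieces, fewer cells of a type and less RNA per cell cannot be told apart.

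The members ranged widely in level but made up a small share of the RNA. Mean VC levels ran from 2.37 to 597 CPM with a median of 10.5 CPM. There were 3 members at 100 CPM or more, 26 between 10 and 100 CPM and 27 under 10 CPM. Medians over members of the mean level were 10.5 CPM in VC, 1.58 CPM in VE, 1.31 CPM in UC and 1.17 CPM in UE. The ratio of mean CPM had a median of 6.0 for VC over VE (range 2.52 to 39.9). For VC over UC its median was 8.10 (range 2.21 to 75.6 over the 54 members with more than 3 counts in UC), and for VC over UE it was 8.47 (range 2.58 to 95.3 over 55 members). These contrasts chose the members and are given as a description. In the fit described further on, 30 members were called higher in VC than in VE, where 0.383% of all genes tested were, and 53 were called higher in VC than in UC, where 2.67% of all genes were. None was called lower in either, where 0.571% and 2.43% of all genes were. Nothing is read from these counts.

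**Figure D1:**
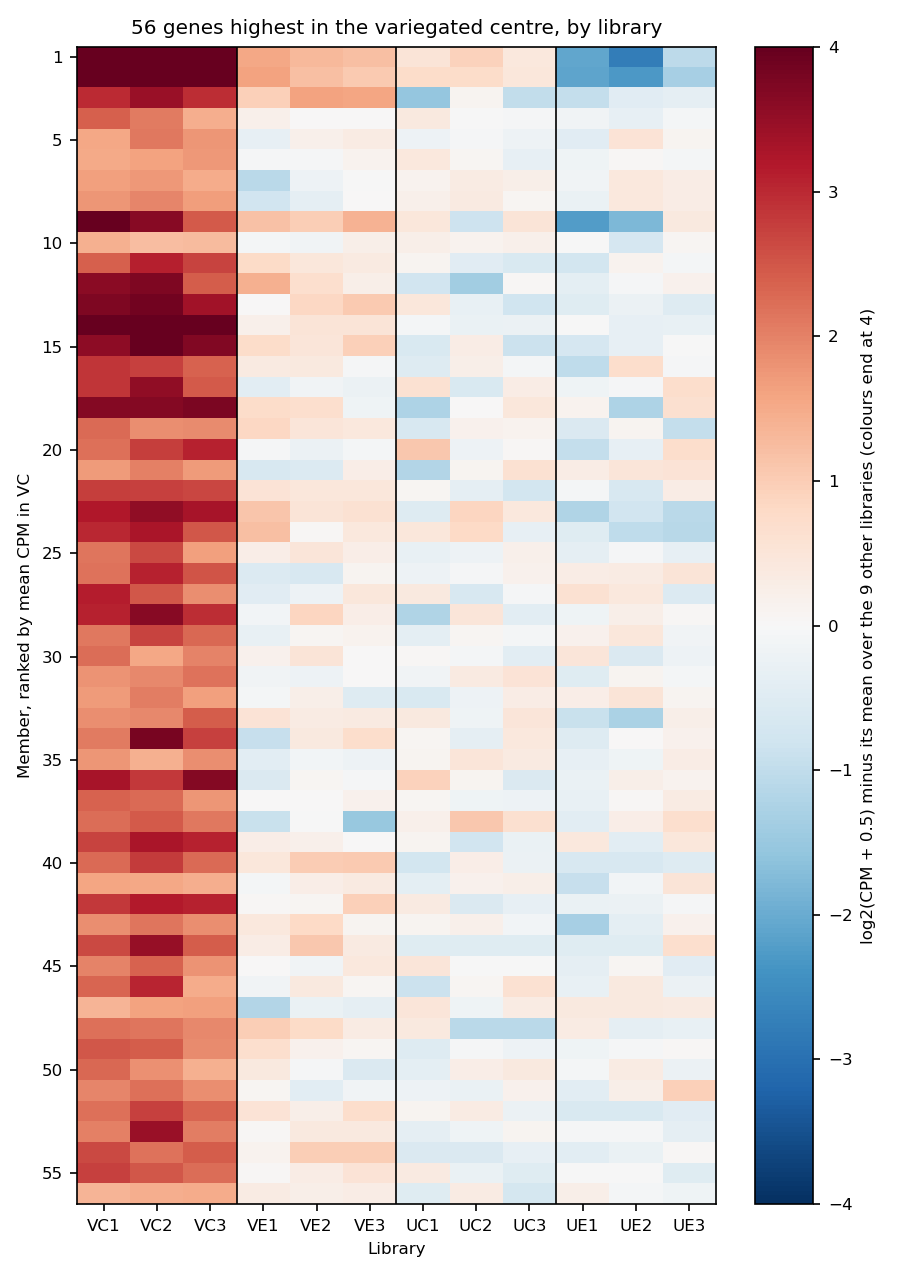
Each row is a member, ranked by mean CPM in VC, and each column a library; colour gives log2(CPM + 0.5) minus the mean of that value over the 9 libraries outside VC, with colours ending at 4. All 56 rows are red in the 3 VC columns, which the choice of members sets, and members 1 and 2 are also blue in the 3 UE columns.

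The members' excess over the other libraries varied. The lowest VC level was at least 3 times the highest of the other 9 libraries in 25 members, at least 5 times in 12 and at least 10 times in 1. At the threshold, the member closest to it had a lowest VC level of 49.8 CPM against a highest other level of 24.7 CPM. The gene closest below the threshold had 39.7 CPM against 19.9 CPM. Between ratios of 2 and 2.2 there were 12 members, and between 1.8 and 2 there were 13 genes outside. The same conditions turned to each other group, without the further dropping steps, gave 59 genes for VC, 12 for VE, 4 for UC and 2 for UE. These counts are by library total, which sets VE levels lower relative to the other groups than TMM scaling does.

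Within the VC libraries the members did not move as a block. VC2 held the highest of the 3 values in 32 members, VC1 in 15 and VC3 in 9, and VC3 held the lowest in 31. The coefficient of variation among VC libraries had a median of 20.3% and ran from 3.66% to 71.4%. Member 9 shows a wide spread, with 48.7, 32.9 and 14.1 CPM in VC1, VC2 and VC3, against 4.79 to 6.47 CPM in VE, 0.989 to 3.30 CPM in UC and 0.0617 to 2.97 CPM in UE. The list depended on VC3 more than on the other VC libraries, since 111 genes met the rule without VC3, 83 without VC1 and 61 without VC2.

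Member 1, Cluster-20123.55721, was the most abundant. It stood at 535, 634 and 620 CPM in VC, at 75.2, 62.5 and 59.3 CPM in VE, at 36.1, 48.1 and 34.1 CPM in UC and at 5.56, 3.29 and 12.1 CPM in UE. No groups overlapped, so the levels fell in the order VC, VE, UC, UE. Member 2 had the same order, with 163, 182 and 152 CPM in VC, 24.1, 18.1 and 16.1 CPM in VE, 12.9, 12.9 and 10.6 CPM in UC and 1.36, 1.16 and 2.70 CPM in UE. Members 1 and 2 were the only 2 of the 56 in which VE, UC and UE were fully separated in this order.

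Member 14, Cluster-20123.65146, had the largest gap, its lowest VC level being 20.6 times its highest level elsewhere. It stood at 17.0, 28.3 and 15.6 CPM in VC, at 0.502, 0.759 and 0.757 CPM in VE, at 0.332, 0.228 and 0.246 CPM in UC and at 0.370, 0.194 and 0.220 CPM in UE. VE was above both unvariegated groups in every library, and UC and UE overlapped. Its low levels rest on few counts, with 35 over the VE libraries, 13 over UC and 13 over UE, against 966 over VC.

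Members 3, 6 and 13 show other forms. Member 3 had 90.8, 125 and 87.3 CPM in VC, 21.8, 34.6 and 33.5 CPM in VE, 3.45, 11.7 and 5.27 CPM in UC and 5.43, 7.88 and 8.48 CPM in UE, so VE lay above both unvariegated groups, whose ranges overlap. Member 6 had 54.2, 57.1 and 62.1 CPM in VC, 17.9, 17.7 and 20.6 CPM in VE, 24.7, 19.4 and 14.7 CPM in UC and 16.2, 19.1 and 17.3 CPM in UE. Outside VC its ranges overlap throughout. In 5 members, 6 among them, the other 9 libraries lay within 2-fold of each other. Member 13 had 21.8, 23.4 and 16.3 CPM in VC, 1.17, 2.45 and 2.91 CPM in VE, 1.79, 0.837 and 0.443 CPM in UC and 0.679, 0.904 and 0.661 CPM in UE, with VE above UE and UC overlapping both.

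**Figure D2:**
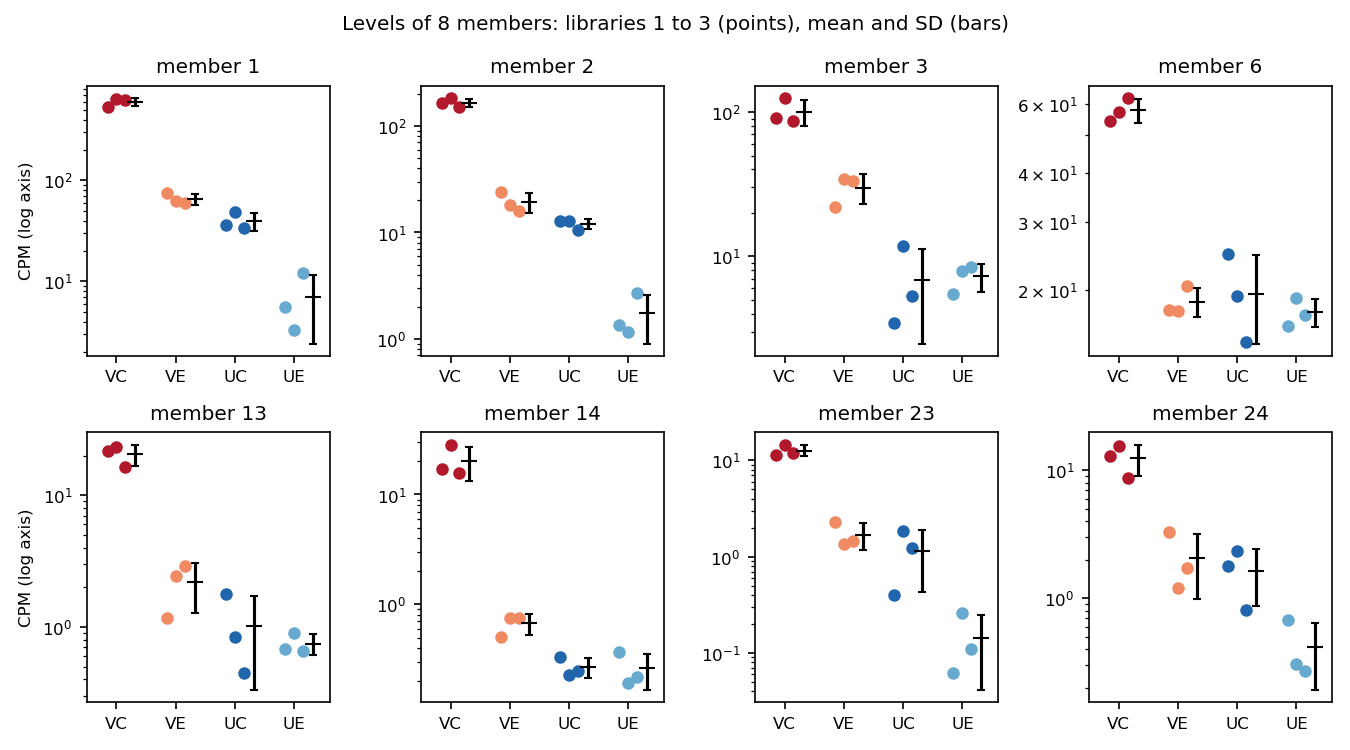
Levels in CPM on a log axis for 8 members, with a point for each of the 3 libraries of VC, VE, UC and UE and a bar for the mean and SD beside them. Members 1 and 2 step down from VC through VE and UC to UE, member 6 is level outside VC, and member 14 lies below 1 CPM outside VC.

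Read per length, the order of abundance changed. On the deposited FPKM scale, which divides by gene length, member 1 averaged 2778 FPKM in VC and was the highest. Member 4 averaged 1037 FPKM, member 2 averaged 678, member 3 averaged 185 and member 23 averaged 166 FPKM. The median of the members' VC means was 13.99 FPKM. Effective length, the number of positions at which a fragment can start, was 214 bases for member 1, 245 for member 2, 59.3 for member 4 and 76.4 for member 23, and FPKM of such short genes turns on that estimate.

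All members together held 1552, 1801 and 1517 CPM in VC1, VC2 and VC3, against 265 to 276 CPM in VE, 193 to 222 CPM in UC and 129 to 176 CPM in UE. In each VC library members 1 and 2 made up 45.0% to 50.9% of this sum, and in UE 2.75% to 8.40%. Without them the sums were 861 ± 120 CPM in VC, 186 ± 18.0 CPM in VE, 155 ± 6.08 CPM in UC and 147 ± 21.5 CPM in UE, as mean ± SD with n = 3 for each group. In every VC library all members had counts, while 4 to 6 members had none in each UC library and up to 3 had none in each library of VE and UE.

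**Figure D3:**
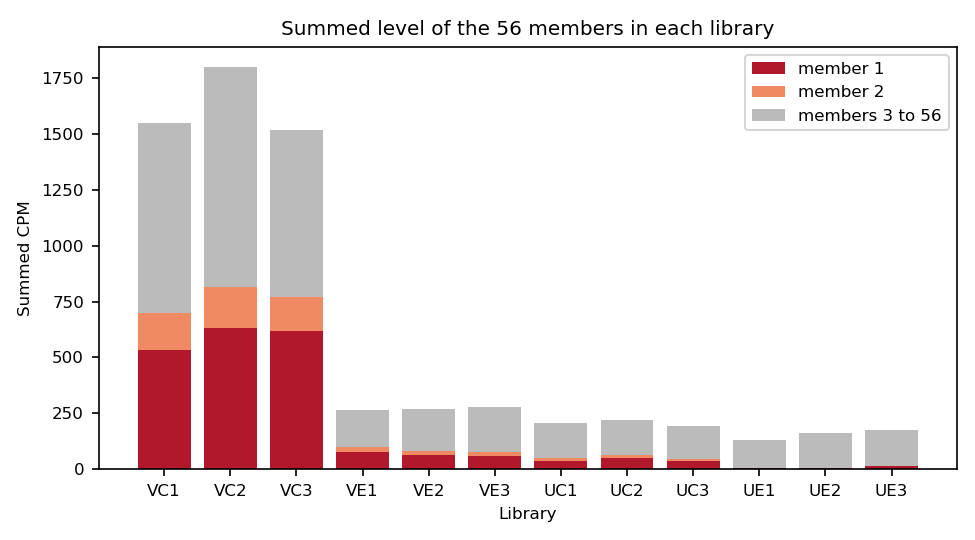
Summed CPM of the 56 members in each library, with members 1 and 2 in colour and members 3 to 56 in grey. The VC bars reach 1517 to 1801 CPM and the other bars reach 129 to 276 CPM.

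The comparison of VE with UE asked whether genes highest in the variegated centre also differed between phenotypes at the leaf edge, where no VC library enters the contrast. Of the 56 members, 9 were higher and 0 lower (edgeR's quasi-likelihood test, Benjamini-Hochberg adjusted p below 0.05 over 59225 genes), that is 16.1% of the members, where 3.33% of all genes tested were higher and 1.94% lower. At an unadjusted p below 0.05 in edgeR, 23 members were higher and 1 lower, where 10.8% of all genes tested were higher and 9.37% lower. DESeq2 called 13 members higher and 0 lower, against 1.79% and 1.15% of all 185746 genes. The median log2 fold change was 0.84 over members and -0.04 over all genes tested, and 45 members had a positive value, where 47.4% of all genes tested did. With scaling by library totals alone these medians were 0.57 and -0.32, and 39 members had a positive value. The dropping step removed genes raised in all variegated libraries, so it held down the number of members high in VE. The rule's limit on levels outside VC was by library total, which sets VE lower than TMM scaling does. Genes higher in VE after TMM scaling could therefore pass it more easily. The comparison was not made for the 36 that stay members with TMM-scaled CPM. All 56 members passed the filter on low counts over the 12 libraries, but with only the VE and UE libraries 44 did. The other 12, with members 14 and 52 among them, entered the test through libraries outside the contrast, so their calls have no counterpart in that smaller fit. Of the 44, 6 were called higher (members 1, 2, 3, 23, 24 and 40) and 0 lower, where 4.23% of all genes in that fit were higher and 2.08% lower. The median of the 44 was 0.60 on the log2 scale, against -0.03 over all genes in that fit, and 34 had a positive value.

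By library, all 3 VE values lay above all 3 UE values in 25 members, where 8.21% of all genes tested did so, and below them in 3 members, where 23.8% of all genes did. Both shares are of CPM scaled by library total. VE lay above UC in every library in 15 members and below it in 5, where 6.86% and 31.4% of all genes tested did. By group mean the highest of VE, UC and UE was VE in 34 members, UC in 12 and UE in 10. The lowest was UE in 24, UC in 20 and VE in 12. These orders are by library total, and their shares over all genes tested were not computed, so nothing is read from them.

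The called members were 1, 2, 3, 13, 14, 23, 24, 40 and 52. Member 2 had a log2 fold change of 3.77 in VE against UE (SE 0.28, with an edgeR adjusted p = 0.000248) and member 1 of 3.54 (SE 0.35, with an edgeR adjusted p = 0.00177). Both calls held under every alternative tried. Member 14 had 1.61 (SE 0.39, adjusted p = 0.0368 in the same edgeR test) and was higher in 3 of 3 VE libraries. Its call was lost without any single library of VE, UC or UE, with edgeR adjusted p between 0.0515 and 0.147, and over all alternatives its adjusted p ran from 0.0194 to 0.406. Over the 8 called members with more than 3 counts in UE the log2 fold changes lay between 1.61 and 3.81. Member 52 summed to 31 counts in VE and 1 count in UE, a ratio of 29.6 by library totals with a 95% exact counting interval of 4.93 to 1206, which covers counting error only.

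Among the other called members, 23 had 2.29, 1.34 and 1.46 CPM in VE against 0.0617, 0.258 and 0.110 CPM in UE, and member 24 had 3.29, 1.21 and 1.73 CPM in VE against 0.679, 0.307 and 0.269 CPM in UE. The log2 fold change of member 24 was 2.57 (SE 0.55, adjusted p = 0.0247, edgeR). Its call was lost without VE1, UE2 or UE3, where edgeR's adjusted p was 0.0957, 0.0761 and 0.107, and in limma on log2 FPKM plus 1 and plus 0.1, at adjusted p = 0.120 and 0.0596. Over all alternatives its adjusted p ran from 0.000373 to 0.120. For member 13 the value was 1.8 (SE 0.46, adjusted p = 0.0454, edgeR), and the call was lost without any library but VC3, UC1 or UC3, with adjusted p between 0.0515 and 0.163 in the same edgeR test. It was also lost in edgeR with the replicate block (adjusted p = 0.0576), with only the VE and UE libraries (0.0549) and with library totals (0.0676), and in limma with both FPKM settings (0.109 and 0.108). Over all alternatives the adjusted p of member 13 ran from 0.00462 to 0.163. Member 40 had 1.12, 1.87 and 1.92 CPM in VE against 0.247, 0.258 and 0.330 CPM in UE. Its difference on the log2 scale was 2.79 (SE 0.49, adjusted p = 0.0109, edgeR), and it lost its call without UE1 alone, at an adjusted p of 0.0523. With VE1 and UE1 both left out, a setting added after the data were seen, 2 members were called, namely 1 and 2, against 0.124% of all genes higher. The median of the members was then 0.78.

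**Figure D4:**
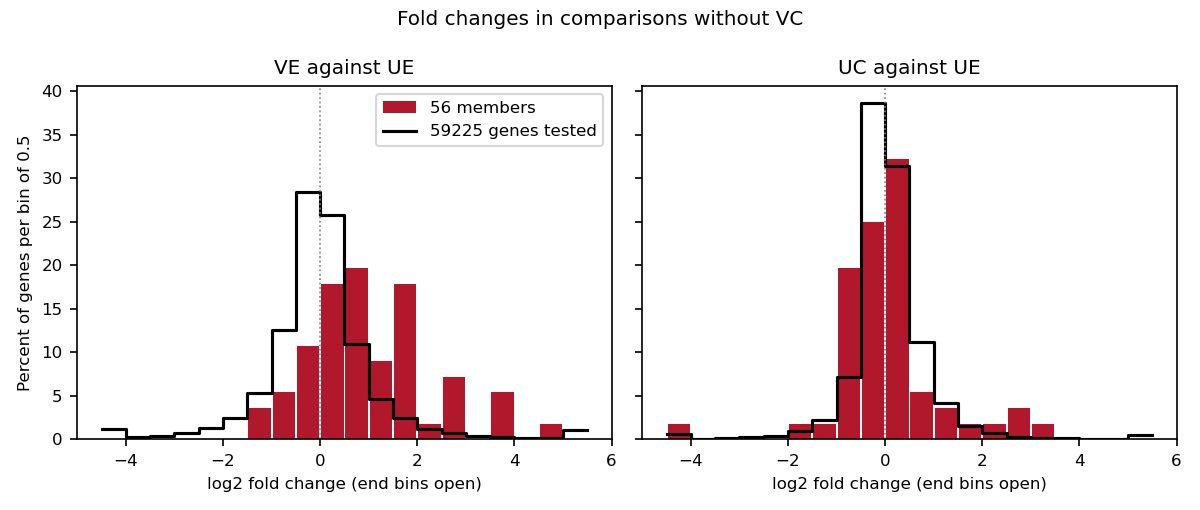
Percent of genes per bin of 0.5 in log2 fold change for the 56 members (bars) and all 59225 genes tested (line), for VE against UE and for UC against UE, with the outermost bins open. In VE against UE the members are shifted to the right, with a median of 0.84 against -0.04 over all genes, and in UC against UE both centre on 0, with medians of -0.03 and 0.00.

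The comparison of UC with UE asked whether the members also differed between the zones of leaves without variegation. Few members passed the test, and members went both ways. The log2 fold change had a median of -0.03 over members, with quartiles at -0.42 and 0.35, against a median of 0.00 over all genes tested, and 28 members had a positive value and 28 a negative one. Of the 56, 1 was called higher and 0 lower, where 0.00169% of all genes tested were higher and 0% lower. That single call, member 2, was the only 1 among all 59225 genes. At an unadjusted p below 0.05 in edgeR, 5 members were higher and 1 lower, where 3.04% of all genes tested were higher and 2.18% lower. DESeq2 called 2 members higher, against 0.021% of all 185746 genes. A lack of calls does not show equal levels, since in simulated data this fit recovered 16% of 2-fold changes in UC against UE. The simulation held 50 changed genes of each size, while 1 gene was called in the data. Its recovery rates, such as 92% at 8-fold, may therefore be too high for the data. With only the UC and UE libraries 39 of the 56 members passed the filter on low counts. The others entered the test through libraries outside the contrast. Of the 39, 0 were called in that smaller fit and 19 had a positive value. Their median was -0.07 on the log2 scale, against -0.01 over all genes in that fit. UC lay above UE in all libraries in 7 members, where 8.31% of all genes did, and below in 1, where 2.70% did. UE libraries enter both this comparison and that of VE with UE.

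Member 2, the called one, had a log2 fold change of 2.68 (SE 0.28, with an edgeR adjusted p = 0.0384, higher in 3 of 3 UC libraries) and member 1 of 2.41 (SE 0.34, adjusted p = 0.266, edgeR), which did not pass. The call of member 2 was lost without VC1, VC2, VC3, VE2, VE3, UC1, UC2, UE1 or UE2, with edgeR adjusted p between 0.0591 and 0.290, and over all alternatives its adjusted p ran from 7.94e-16 to 0.671. Without UE3 member 1 passed as well (2.99, adjusted p = 0.00906, edgeR). With the replicate number as a block no member was called, and member 2 had an adjusted p of 0.300 in edgeR. Members 23 and 24 had values of 2.85 and 1.79 that did not pass (adjusted p = 0.679 and 0.871, edgeR). Member 44 had no count in any UC library and 11 over the UE libraries, all 11 in UE3.

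Several members carried neighbouring identifiers. Of the 56, 44 belonged to the largest assembly group, 20123, the first number of the identifier, which held 55.9% of all genes. The other 12 came from 12 different groups. In 3 blocks, 9 members had another member within 5 identifier numbers. Members 1, 2 and 52 formed the first, members 3 and 40 the second, and members 13, 37, 54 and 55 the third. Of the 9 members called in VE against UE, 6 were in such blocks, so the 9 calls came from 6 separate places in the numbering. Members of a block may be pieces, alleles or copies of a gene that share sequence, and no sequence was available to examine this, so they are uncertain as separate genes.

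Values within the first 2 blocks ran in parallel. Over the 9 libraries outside VC, the Pearson correlation of log2(CPM + 0.5) was 0.99 between members 1 and 2, 0.91 between members 1 and 52 and 0.94 between members 3 and 40. These libraries share group differences and depth, so the values are descriptions. In the third block it ran from 0.22 to 0.92. Member 54 had 4.23, 2.89 and 3.49 CPM in VC, 0.335, 0.993 and 0.990 CPM in VE, and 2 counts over UC and 8 over UE. Member 37 had 7.68, 7.10 and 4.89 CPM in VC, 1.12, 1.11 and 1.28 CPM in VE, 1.19, 0.913 and 0.886 CPM in UC and 0.803, 1.16 and 1.49 CPM in UE. So the block was not uniform, as member 37 did not separate VE from UE. Over all 1540 pairs of members the median correlation was 0.14, with 5.52% of pairs above 0.7 and 40.1% below 0.

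The members were shorter by median than the genes that met the level condition. Their median effective length was 588 bases, from 59.3 to 2545, against 1149 bases over the 27551 genes with at least 2 CPM in each VC library and more than 3 unvariegated counts. There were 13 members under 300 bases, 25 from 300 to 1000 and 18 above 1000. Of all genes tested that had a length, 13.79% were under 300 bases, and their median was 980 bases. Estimated counts were whole in all 12 libraries for 28 of the 56 members, against 22.5% of those 27551 genes. Whole estimates, here within a tolerance of 0.005, arise where reads are not split between genes.

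Length moved with the zone comparison of unvariegated leaves. Effective lengths in UC1, UC2 and UC3 exceeded each gene's median over libraries by a median of 22.6, 20.3 and 7.16 bases, against offsets between -4.29 and 0.987 bases in the other 9 libraries. In UC against UE the 13 short members, below 300 bases, had a median difference of 0.31 on the log2 scale and the other 43 of -0.07, where all genes tested under 300 bases had 0.22. Members 1, 2, 23 and 52, with the highest values in that comparison, were all under 300 bases. The fitted values of the first 3 were 2.41, 2.68 and 2.85, and that of member 52 rests on 1 UE count. The part that length plays in them was not tested. In VE against UE the medians were 1.55 for the short members and 0.61 for the other 43, where all genes tested under 300 bases had 0.00.

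**Figure D5:**
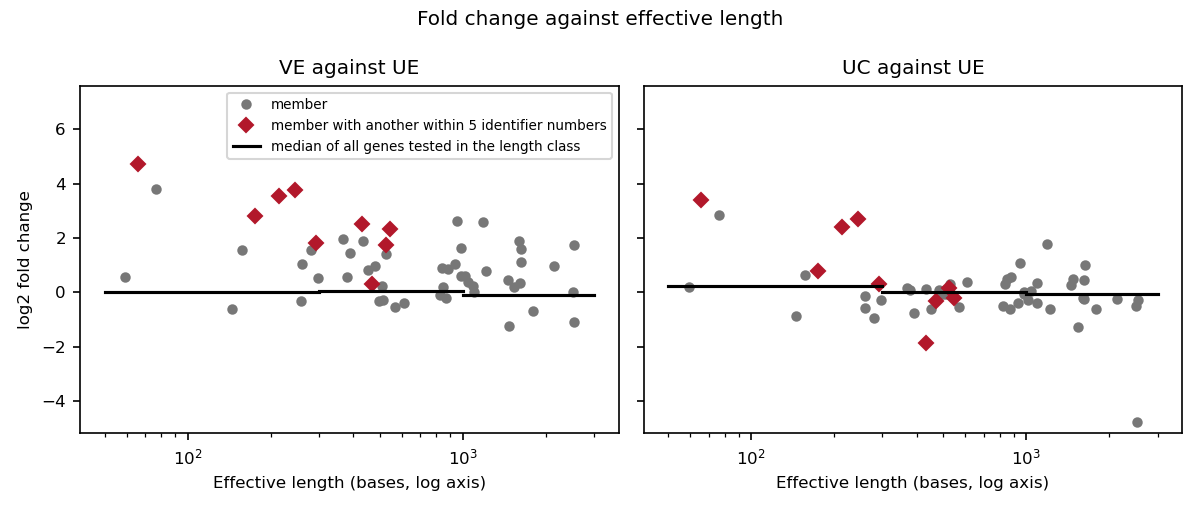
Log2 fold change of each member against its effective length in bases on a log axis, for VE against UE and UC against UE; red diamonds are the 9 members with another member within 5 identifier numbers and black lines are medians of all genes tested in 3 length classes. The highest values in both panels belong to members under 300 bases, with 6 of the 9 called members of VE against UE among them.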

How the data were processed

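Expected counts, estimated per gene and partly not whole, and FPKM values, scaled by gene length and library size, were deposited by the authors for 185746 genes. RSEM, Bowtie2 and CASAVA 1.8 are named per the submitters' processing notes; the assembler, the reference and other versions are not given in the sources used here. Libraries were made from polyA RNA, with no strand-marking step, per the labels' protocols. All 12 libraries were used, grouped by title. The members and the rule were chosen with earlier results of these data known.

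CPM was computed from column sums. Expected counts were rounded to whole numbers and genes kept by filterByExpr (minimum count 10, minimum total 15), which left 59225. The test was edgeR 4.0.16 (R 4.3.3) with TMM, robust glmQLFit and glmQLFTest over all 12 libraries in 1 fit, with Benjamini-Hochberg adjustment. The SE was taken as the size of the log2 fold change over the root of the F statistic. Effective length was the ratio of deposited expected count to FPKM, times 1e9 over the library total, as a median over libraries with at least 20 counts. Identifiers were printed for the member with the highest mean VC CPM and that with the largest ratio of lowest VC to highest other CPM. Other members discussed were picked after their values were seen.

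The fit was tested on simulated data for 59225 genes, with the spread between libraries set by its trend with level. Changed genes were drawn from those with a mean of at least 1 CPM. Recovery below that level, where some members lie in UC and UE, was not simulated. For VE against UE it recovered 16%, 70%, 88% and 92% of changes of 2, 4, 8 and 16-fold (50 genes each, 7 false calls), and for UC against UE 16%, 74%, 92% and 94% (3 false calls). Alternatives were RLE, library totals, other filters, DESeq2 1.42.0, limma 3.58.1 on log2 FPKM plus 1 or 0.1, a replicate block, only the libraries compared, other limits in the rule and each library left out. Leaving out VE1 and UE1 together was added after the data were seen.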

Additional observations from a re-analysis of the deposited data

Results flagged for a closer look

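In 3 members every VC library lay above every UC library, as the rule sets, while every VE library lay below every UE library in CPM. These opposite directions in the zones were not tested as a difference. The order is by library total. For member 21 it rests on that scaling, since VE3 (4.16 CPM, TMM factor 0.878) passes UE1 (4.33 CPM, TMM factor 0.995) after TMM scaling. Member 21 had 2.00, 2.18 and 4.16 CPM in VE against 4.33, 5.0 and 5.22 CPM in UE (log2 fold change -0.54), member 26 had 0.765, 0.701 and 1.51 CPM in VE against 1.79, 1.85 and 2.13 CPM in UE (-0.68), and member 47 had 0.248, 0.920 and 0.818 CPM in VE against 1.73, 1.74 and 1.65 CPM in UE (-1.11). None passed the edgeR test in VE against UE (adjusted p = 0.559, 0.293 and 0.177), and 23.8% of all genes tested lay below UE in this way. Member 26 was also opposite between zones, with VC above VE in every library by the rule and 1.13, 1.29 and 1.58 CPM in UC, all below UE (log2 fold change -0.63, adjusted p = 0.973 in edgeR). That difference between the zones was likewise not tested.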

How the results depend on the processing

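The number of members, 56, was 163 with a fold of 1.5 and 25 with a fold of 3, and ran from 56 to 111 with 1 library left out. Under the other limits and scalings tried it lay between 38 and 69. Every call counted below was of a higher level, and the share of all genes tested that were called higher is given in brackets. The count of members called in VE against UE, 9 (3.33%), was 14 with no low-count filter (1.15%). It was 2 without VE1 and UE1 together (0.124%) and 6 to 9 with 1 library left out (0.763% to 3.77%). The replicate block gave 8 (3.52%). In UC against UE the single call (0.00169%) became 2 with no filter (0.00725%), DESeq2 (0.021%) and FPKM plus 1 and plus 0.1 (0.0444% and 0.0368%). It became 0 with the replicate block, in a fit of the 6 UC and UE libraries and with VE1 and UE1 omitted (0% in each). With 1 library left out it was 0 to 2 (0% to 0.00315%). Same-numbered libraries of different groups had correlations of -0.0616 to 0.13 in their deviations from group means. Without such values for differently numbered libraries, these do not decide whether the numbers pair the libraries. In VC against VE the 30 calls (0.383%) became 50 (1.22%) when limma was run on log2 FPKM plus 1. Dropping VE1 together with UE1 lowered them to 8 (0.0666%). Leaving out any 1 library gave 9 to 30 (0.0426% to 0.344%). For VC against UC the 53 calls (2.67%) became 35 to 53 (0.525% to 4.06%) when any 1 library was removed. The median log2 fold change of members in VE against UE was 0.26 and 0.47 with FPKM plus 1 and plus 0.1. Over all genes in these fits it was -0.21 and -0.29, against -0.04 in edgeR over all 12 libraries. With 1 library left out the members' median was 0.74 to 1.02 in VE against UE and -0.14 to 0.08 in UC against UE. The causes were not tested. Low counts outside VC, such as 13 over the UE libraries for member 14, limit the precision.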
